A study of Mus musculus with 12 samples.

Results

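Genes of 7 families of amino acid carriers, Slc1, Slc3, Slc6, Slc7, Slc36, Slc38 and Slc43, were followed in mouse stomach organoids with and without Wnt inhibition. They were taken by symbol from the deposited gene table, leaving out Slc7a11, with at least 10 counts summed over the 12 libraries. Of 66 genes matched by name, 43 of the table's 55421 genes reached that minimum and 23 did not. The 43 comprised 5 Slc1, 2 Slc3, 12 Slc6, 11 Slc7, 3 Slc36, 7 Slc38 and 3 Slc43 genes. The symbol Slc7a6os names a gene on the opposite strand next to Slc7a6 and no carrier, which leaves 42 carrier genes.

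The cells were wild-type gastric gland epithelium grown as organoids in Matrigel, from the corpus (the body of the stomach) or the antrum (its outlet end), passaged at least 3 times. There were 4 groups of 3 libraries: corpus vehicle, corpus inhibited, antrum vehicle and antrum inhibited, each with lines 8025, 8026 and 8028. Inhibited cultures received XAV939, a tankyrase inhibitor (1 mM as labelled), and Noggin at 100 ng/mL, without added Wnt or R-spondin, from day 4 after passage for 24 h. Vehicle cultures received DMSO in normal medium, which holds 50% L-WRN conditioned medium. All cultures were grown in serum, 20% in corpus medium and 10% in antral medium, and what belongs to region or to serum cannot be told apart. The inhibitor, the loss of conditioned medium and the added Noggin were applied together and cannot be told apart either.

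Amino acid carriers of these families differ in what drives them. Sodium-coupled carriers of Slc1, Slc6 and Slc38 can accumulate amino acids. The Slc7 light chains exchange one amino acid for another and reach the membrane bound to a heavy chain of Slc3, and the uniporters of Slc43 and the cationic carriers of Slc7 let amino acids run down their gradient. In epithelia such carriers feed protein synthesis and the lysosomal mTORC1 pathway, and many are transcribed through ATF4 when amino acids run short.

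Library totals ranged from 18858022 to 31656696 counts, and the 43 genes took 0.1845 to 0.2433% of them. A level is given as CPM, read counts scaled to a common TMM-adjusted library size. A floor of 3 counts, set for readings of 0, equals 0.0889 to 0.177 CPM. Lgr5 and Axin2, targets of Wnt signalling, checked the labels: Lgr5 read 40.0 to 51.2 CPM in the 6 vehicle and 0.206 to 1.83 CPM in the 6 inhibited libraries. Axin2 in inhibited corpus line 8028 read 18.7 CPM against 3.71 and 5.39 CPM in the other corpus lines. Values without that library are given for some, not all, of the genes where they differ in call or size. Counts from ribosomal RNA-like genes made up 17.2% and 6.87% of antral vehicle lines 8025 and 8028 and 0.839 to 3.46% of the other libraries. The 5 epithelial markers (Epcam, Cdh1, Krt8, Krt18, Cldn18) summed to at least 6020 CPM in every library. Of the parietal markers, Atp4b (beta subunit of the proton pump) held 1 count in all libraries together, and Atp4a (its alpha subunit) read 0.799 to 1.56 CPM in corpus vehicle and 0.767 to 1.54 CPM in antrum vehicle. Cblif, gastric intrinsic factor, read 68.9 to 192.1 CPM in corpus vehicle and 32.9 to 61.5 CPM in antrum vehicle, groups that did not overlap (log2 -1.59, adjusted p = 0.11). The antral hormone gastrin (Gast) did not exceed 0.167 CPM in any library. The 7 fibroblast markers summed to at most 2.24 CPM. The 5 immune markers summed to 9.89 to 51.5 CPM, nearly all of it Cd68 (9.56 to 50.6 CPM), and the other 4 stayed below 1 CPM. Markers of forestomach squamous epithelium summed to at most 9.97 CPM and enteroendocrine markers to at most 6.57 CPM. In bulk RNA, fewer cells of a type and less RNA per cell cannot be told apart.

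Motifs were searched in the 250 bases upstream of RefSeq starts (GRCm38.p6), which were given for 30 of the 43 genes. The 4 windows below belong to genes with large changes in both regions, and each holds a listed motif, in capitals. The motifs were CTTTGA (TCF/LEF core), CACGTG (E-box), GCGTG (AHR core) and TGATGNAA (the element of ATF4 and C/EBP), each on both strands, so CACGC and TCAAAG are the reverse complements of the AHR and TCF/LEF cores.
Slc6a20a (AHR core, chr9:123678833-123679082, minus strand): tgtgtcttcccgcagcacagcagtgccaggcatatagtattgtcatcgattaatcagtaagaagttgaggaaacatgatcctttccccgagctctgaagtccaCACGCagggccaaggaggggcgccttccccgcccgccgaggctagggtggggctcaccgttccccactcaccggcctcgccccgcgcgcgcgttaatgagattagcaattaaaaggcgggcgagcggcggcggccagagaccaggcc
Slc1a1 (AHR core, chr19:28834885-28835134, plus strand): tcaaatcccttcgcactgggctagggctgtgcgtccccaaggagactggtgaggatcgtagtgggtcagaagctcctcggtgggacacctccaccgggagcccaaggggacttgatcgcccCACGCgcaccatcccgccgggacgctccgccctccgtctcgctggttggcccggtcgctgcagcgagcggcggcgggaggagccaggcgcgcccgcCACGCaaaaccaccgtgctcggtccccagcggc
Slc1a2 (TCF/LEF core, chr2:102706188-102706437, plus strand): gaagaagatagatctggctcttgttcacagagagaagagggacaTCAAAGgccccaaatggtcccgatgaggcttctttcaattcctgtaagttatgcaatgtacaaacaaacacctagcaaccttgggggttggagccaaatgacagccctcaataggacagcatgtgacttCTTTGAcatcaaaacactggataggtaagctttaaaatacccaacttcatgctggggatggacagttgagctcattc
Slc43a1 (E-box, chr2:84840073-84840322, plus strand): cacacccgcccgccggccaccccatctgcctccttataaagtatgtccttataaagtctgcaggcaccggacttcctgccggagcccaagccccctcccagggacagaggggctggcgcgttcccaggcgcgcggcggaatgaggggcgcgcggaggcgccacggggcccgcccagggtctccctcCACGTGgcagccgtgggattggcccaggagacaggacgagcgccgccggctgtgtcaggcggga
All 4 windows reach into the span that GENCODE gives the gene, and those of Slc1a2 and Slc43a1 lie wholly inside it. Over all genes with such windows, 3.9% held TGATGNAA, 15.8% CTTTGA, 6.9% CACGTG and 30.9% GCGTG. Of 6 genes that rose in either region and have a window, TGATGNAA was in 1 (Slc7a7), CTTTGA in 2 (Slc7a1, Slc7a7), CACGTG in 1 (Slc38a7) and GCGTG in 2 (Slc6a20a, Slc6a9). Of 6 that fell, TGATGNAA was in 0, CTTTGA in 1 (Slc1a2), CACGTG in 1 (Slc43a1) and GCGTG in 2 (Slc1a1, Slc7a6). Of 11 tested genes that were not called, these motifs were in 0, 3, 1 and 5. A match is a string of letters in the window, and its use by a factor was not tested.

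Levels were compared between genes only per length, as RPKM (CPM per kilobase of merged exons). In corpus vehicle the highest mean levels were those of Slc3a2, the heavy chain 4F2hc, at 67.8 RPKM, and of its partner Slc7a5 (LAT1, large neutral amino acids) at 66.9 RPKM. Slc1a5 (ASCT2, neutral amino acids including glutamine) had 48.0 RPKM and Slc1a4 (ASCT1, alanine, serine and cysteine) 37.3 RPKM. Slc6a6 (taurine) had 26.3 RPKM, Slc38a2 (SNAT2, small neutral amino acids) 20.0 RPKM and Slc38a10 17.9 RPKM. These 7 genes held 77.3% of the summed RPKM of the 42 carrier genes, and 19 of the 42 had at least 1 RPKM. In antrum vehicle Slc7a5 stood first at 81.6 RPKM and Slc3a2 at 63.9 RPKM. On GRCm38, Slc3a2 lies at chr19:8706882-8723369, Slc7a5 at chr8:121881150-121907694, Slc6a20a at chr9:123634770-123678885, Slc6a9 at chr4:117834506-117875198, Slc1a1 at chr19:28835049-28913960, Slc1a2 at chr2:102658659-102790784 and Slc43a1 at chr2:84838850-84863594, and GENCODE lists each of them as a protein-coding gene. With the length of the longest transcript in place of merged exons, Slc1a5 (71.3 RPKM) stood before Slc7a5 (70.5 RPKM) in corpus vehicle, so the order of neighbours depends on the length used.

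**Figure D1:**
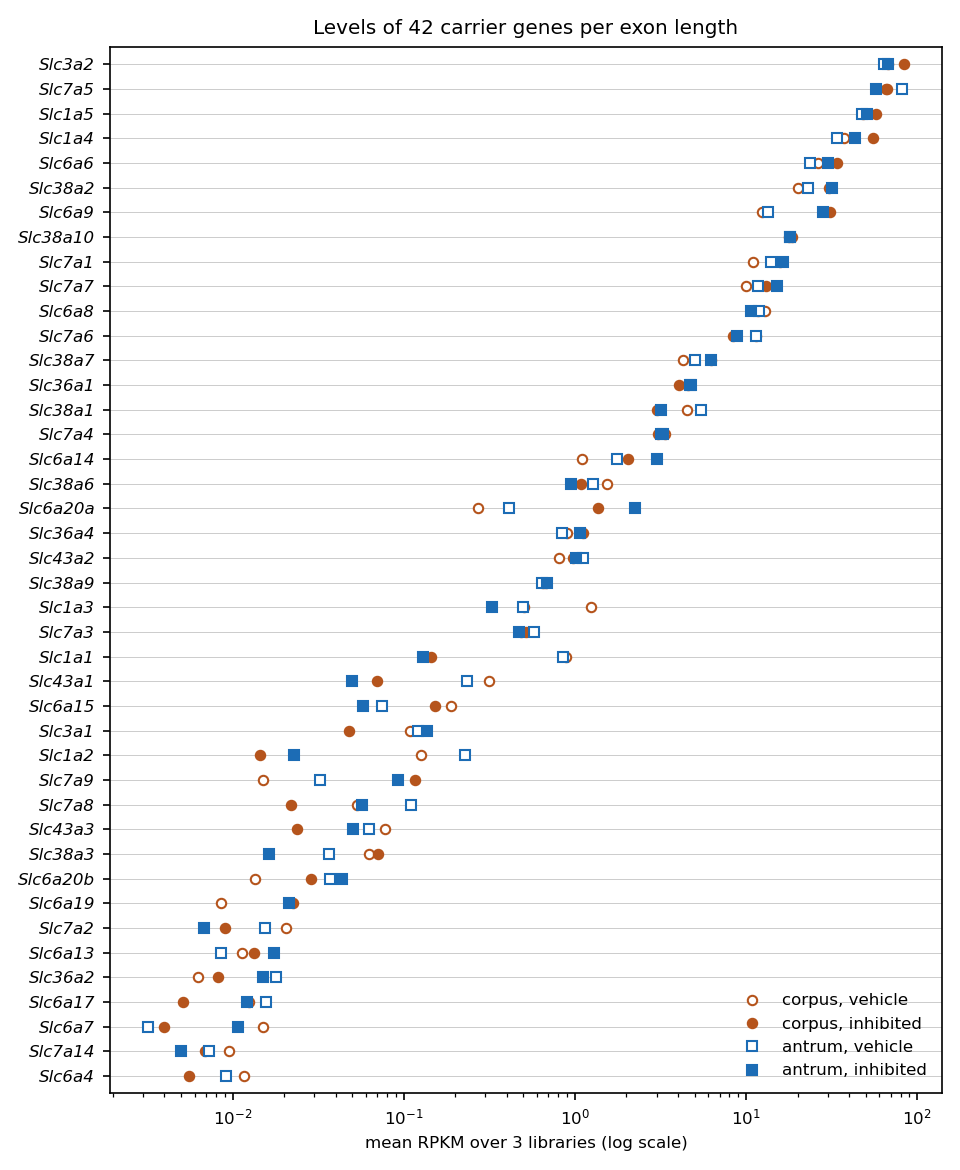
Mean RPKM over 3 libraries for each of 42 carrier genes (x axis, log scale), with a point for each of the 4 groups. Genes are ordered by their mean over the groups. Slc6a19 in antrum vehicle and Slc6a4 in antrum inhibited read 0 and have no point. Slc3a2 and Slc7a5 lie at the top, between 57.1 and 83.9 RPKM in all groups, and 20 or 19 of the genes in each group reach 1 RPKM.

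Wnt inhibition was tested within each region with edgeR's quasi-likelihood test (Benjamini-Hochberg over 16152 genes, two-sided, threshold 0.05). The filter kept 32 of the 43 genes, and the counts of treatment calls given next concern these 32. In corpus 7 of 32 rose and 8 fell, where 15.5% of all genes tested rose and 15.4% fell. In antrum 7 rose and 6 fell, where 16.3% of all genes rose and 13.4% fell. The median log2 change of the 32 was 0.01 in corpus (-0.04 over all genes) and 0.00 in antrum (-0.04 over all genes). The same 7 genes rose in both regions, which have separate control libraries, 5 fell in both, 3 fell only in the corpus test and 1 only in the antrum test. Calls of opposite sign numbered 0, and the sign of the log2 change was shared by 28 of 32. In percent, 21.9 of the 32 rose in both, 15.6 fell in both and 87.5 shared their sign, beside 12.9, 10.4 and 82.9 of all genes tested. Whether the carriers differ from other genes in this was not tested. Scaling by total counts, which moves the median of all genes by -0.16 in corpus and -0.07 in antrum, gave 5 higher and 10 lower in corpus and 3 higher and 6 lower in antrum. Line numbers pair the libraries, and with the line as a replicate block corpus had 8 higher and 8 lower and antrum 9 higher and 7 lower.

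**Figure D2:**
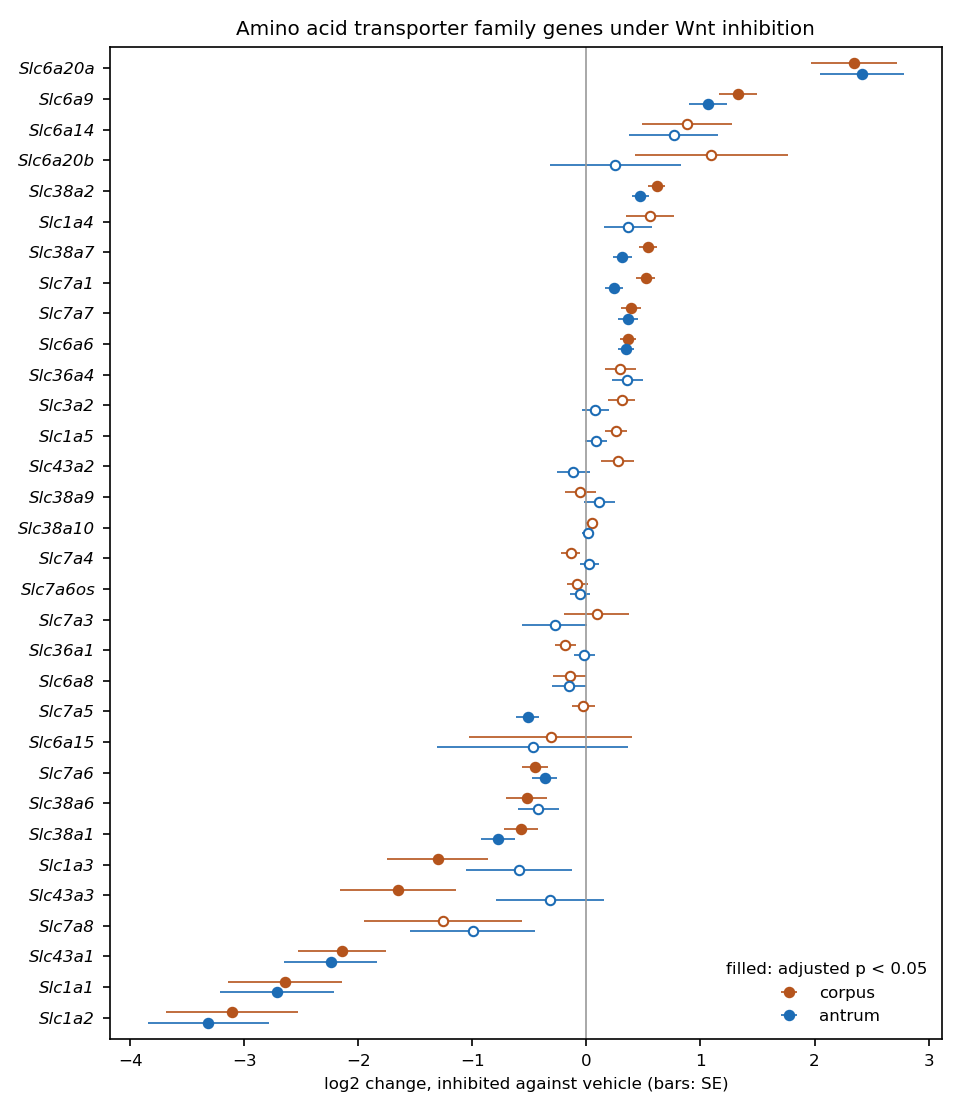
Log2 change, inhibited against vehicle (x axis), with its SE for the 32 tested genes in corpus and antrum; filled points have an adjusted p below 0.05. Slc6a20a is at the upper end (2.34 in corpus, 2.42 in antrum) and Slc1a2 at the lower end (-3.11 and -3.32).

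Of the 5 Slc1 genes, 3 carry glutamate and aspartate and 2 exchange neutral amino acids. All 3 carriers of glutamate and aspartate had negative log2 changes in both regions, and Slc1a1 and Slc1a2 fell in both regions, while edgeR called neither neutral exchanger. Of all genes tested, 10.4% fell in both regions and 82.9% shared the sign of their change. Slc1a1 (EAAC1, also a cysteine carrier) read 7.79, 10.2 and 4.06 CPM in corpus vehicle and 1.85, 1.33 and 0.376 CPM in corpus inhibited, for lines 8025, 8026 and 8028 in this order, which is kept below. In antrum it read 5.37, 5.67 and 9.98 CPM with vehicle and 0.986, 0.821 and 1.41 CPM when inhibited. Each vehicle library lay above each inhibited library of its region. The log2 change was -2.64 ± 0.50 (SE, adjusted p = 0.00208) in corpus and -2.71 ± 0.50 (adjusted p = 0.00189) in antrum. Of its exon bases 31.9% overlap 4430402I18Rik on the opposite strand, which held 318 counts against 1379 for Slc1a1 and was not called in either region (log2 0.29 and 0.14).

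Slc1a2 (GLT-1, best known from astrocytes) was low throughout, at 1.48, 2.87 and 0.633 CPM in corpus vehicle and 0.206, 0.214 and 0.151 CPM in corpus inhibited. The antral libraries read 2.77, 2.50 and 3.76 CPM with vehicle and 0.282, 0.149 and 0.469 CPM when inhibited. The groups did not overlap in either region, and corpus line 8028 had the lowest vehicle value. It fell by 3.11 ± 0.58 on the log2 scale in corpus (adjusted p = 0.00193) and by 3.32 ± 0.53 in antrum (adjusted p = 0.000756), the largest falls of the 32. The 4 neural and glial markers summed to 0.895 to 2.67 CPM over all libraries.

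Slc1a3 (GLAST) read 9.42, 17.6 and 4.89 CPM in corpus vehicle and 3.30, 6.85 and 2.82 CPM in corpus inhibited. Its antral values were 4.78, 3.66 and 4.26 CPM with vehicle and 2.18, 3.81 and 2.39 CPM inhibited. It was lower in all 3 corpus lines and in 2 of 3 antral lines, and the groups overlapped in both regions. The corpus change was -1.31 ± 0.44 (adjusted p = 0.0447) and the antral -0.59 ± 0.47 (adjusted p = 0.363). The interaction of region and treatment gave 0.71 ± 0.64 (adjusted p = 1). The corpus call was lost in 8 of 18 alternatives, among them without vehicle 8026 (log2 -0.73, adjusted p = 0.219), without vehicle 8025 (0.0755) and without inhibited 8025 (0.139) or 8028 (0.114).

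Slc1a4 read 134.7, 141.7 and 162.9 CPM in corpus vehicle and 246.6, 241.9 and 157.8 CPM in corpus inhibited. Slc1a5 read 192.5, 197.6 and 210.4 CPM in corpus vehicle and 236.0, 271.9 and 210.4 CPM in corpus inhibited. In both genes lines 8025 and 8026 were higher when inhibited, and line 8028 was not. The corpus changes were 0.56 ± 0.21 for Slc1a4 (adjusted p = 0.0654) and 0.26 ± 0.10 for Slc1a5 (adjusted p = 0.0643). Without inhibited 8028 they were 0.77 (adjusted p = 0.00947) and 0.37 (adjusted p = 0.00598), and DESeq2 on all libraries called both (0.58, adjusted p = 0.0259, and 0.28, adjusted p = 0.0366). In antrum Slc1a4 went from 133.1, 92.4 and 172.7 to 172.6, 160.2 and 179.4 CPM (log2 0.36 ± 0.21, adjusted p = 0.217), and 0.89 (adjusted p = 0.0309) without vehicle lines 8025 and 8028. Slc1a5 went from 204.2, 199.7 and 194.7 to 199.5, 196.1 and 238.6 CPM there (log2 0.08 ± 0.10, adjusted p = 0.547).

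The heteromeric exchangers pair a heavy chain of Slc3 with a light chain of Slc7. Of the 4 light chains tested, Slc7a7 rose and Slc7a6 fell in both regions, Slc7a5 fell in antrum, and Slc7a8 was not called. Of all genes tested, 12.9% rose and 10.4% fell in both regions. The heavy chain Slc3a2 was not called by edgeR. It read 219.7, 248.7 and 248.9 CPM in corpus vehicle and 328.3, 326.9 and 233.5 CPM in corpus inhibited, so that lines 8025 and 8026 were higher and line 8028 was lower. The change was 0.31 ± 0.12 (adjusted p = 0.0651), and 0.48 (adjusted p = 0.000374) without inhibited 8028, and DESeq2 on all libraries called it (0.33, adjusted p = 0.0368). Antral values were 245.3, 216.2 and 214.8 CPM with vehicle and 235.5, 245.0 and 234.0 CPM inhibited (log2 0.08 ± 0.12, adjusted p = 0.638).

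Slc7a5 (LAT1), which carries leucine and other large neutral amino acids, read 300.4, 312.7 and 294.9 CPM in antrum vehicle and 206.8, 218.8 and 209.5 CPM in antrum inhibited. In corpus it read 217.5, 245.5 and 281.1 CPM with vehicle and 242.5, 273.2 and 214.5 CPM inhibited. Every antral vehicle library lay above every antral inhibited library, and the corpus groups overlapped, with line 8028 lower and lines 8025 and 8026 higher. The antral change was -0.52 ± 0.10 (adjusted p = 0.00237) and the corpus change -0.03 ± 0.10 (adjusted p = 0.866), or 0.18 (adjusted p = 0.0993) without corpus line 8028. The interaction was -0.49 ± 0.14 with an unadjusted p of 0.00491, and did not pass over all genes (adjusted p = 1). The ratio of Slc7a5 to Slc3a2 counts per exon length was 1.28 ± 0.11 (SD, n = 3) in antrum vehicle and 0.846 ± 0.00887 in antrum inhibited, and 0.986 ± 0.0773 and 0.791 ± 0.0857 in corpus, given as a description.

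**Figure D3:**
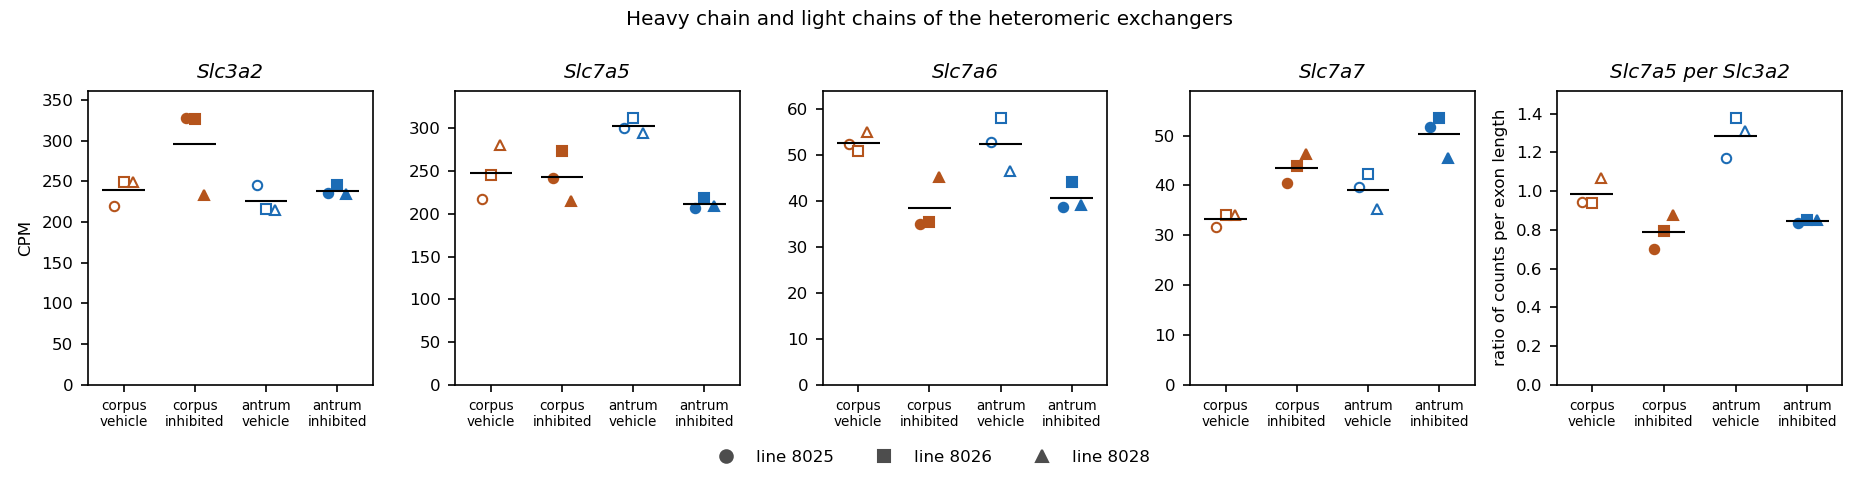
CPM in each library (y axes from 0) of the heavy chain Slc3a2 and 3 light chains, and the ratio of Slc7a5 to Slc3a2 counts per exon length (right), by group; symbols mark the lines and bars the mean of 3. Antral Slc7a5 lies at 294.9 to 312.7 CPM with vehicle and 206.8 to 218.8 CPM when inhibited, and corpus inhibited line 8028 lies apart for Slc3a2 at 233.5 CPM.

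Slc7a6 and Slc7a7 (y+LAT2 and y+LAT1) both exchange cationic for neutral amino acids and moved in opposite directions. Slc7a6 read 52.4, 50.8 and 54.9 CPM in corpus vehicle and 35.1, 35.3 and 45.2 CPM inhibited, and 52.8, 58.2 and 46.4 against 38.8, 44.2 and 39.2 CPM in antrum. Vehicle and inhibited values did not overlap. It fell by 0.45 ± 0.11 in corpus (adjusted p = 0.00947) and by 0.37 ± 0.11 in antrum (adjusted p = 0.0276) on the log2 scale. The antral call was lost in 7 of 19 alternatives, without vehicle 8025 (0.0734) or 8026 (0.138) and without inhibited 8025 (0.0996) or 8028 (0.0879) among them. Slc7a6os beside it read 37.7, 36.5 and 39.8 CPM in corpus vehicle and was not called (log2 -0.08 and -0.06).

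Slc7a7 read 31.7, 34.1 and 34.0 CPM in corpus vehicle and 40.5, 43.9 and 46.4 CPM inhibited. In antrum its level was 39.7, 42.2 and 35.2 CPM with vehicle and 51.8, 53.6 and 45.4 CPM inhibited. All inhibited libraries lay above the vehicle libraries of their region. It rose by 0.39 ± 0.09 (adjusted p = 0.00599) and 0.36 ± 0.09 (adjusted p = 0.00917). With total-count scaling neither was called (0.23, adjusted p = 0.145 and 0.29, adjusted p = 0.0907), and the antral call was also lost without vehicle lines 8025 and 8028 (adjusted p = 0.178). Its exons share 7.0% of bases with Oxa1l on the opposite strand, which held 18149 counts against 13267.

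Slc7a8 (LAT2) read at most 0.446 CPM in corpus and 0.923 CPM in antrum and was not called (log2 -1.26 ± 0.69, adjusted p = 0.194, and -0.997 ± 0.55, adjusted p = 0.197). Among the cationic carriers Slc7a1 (CAT1, arginine and lysine) rose. It read 120.8, 114.6 and 143.5 CPM in corpus vehicle and 173.9, 188.4 and 180.8 CPM inhibited. In antrum the values were 160.8, 169.4 and 149.7 CPM with vehicle and 184.5, 195.9 and 187.2 CPM inhibited. There was no overlap between groups in either region. The change was 0.52 ± 0.08 in corpus (adjusted p = 0.00067) and 0.24 ± 0.08 in antrum (adjusted p = 0.0443), where it was lost in 11 of 19 alternatives, without vehicle 8025 (0.085) or 8028 (0.135) and without inhibited 8025 (0.0789), 8026 (0.126) or 8028 (0.0863) among them, and without both vehicle lines 8025 and 8028 (0.382). Slc7a3 and Slc7a4 were not called (log2 0.09 and -0.14 in corpus, -0.28 and 0.03 in antrum).

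Of the 7 tested genes of the sodium-coupled Slc6 family, 3 rose in both regions and 0 fell in either (adjusted p below 0.05). Over all genes tested, 12.9% rose in both regions. The largest rise of the 32 was that of Slc6a20a (SIT1, a carrier of proline and other imino acids). It read 0.771, 1.05 and 1.498 CPM in corpus vehicle and 3.34, 5.87 and 7.60 CPM inhibited. Antral levels were 1.59, 2.47 and 1.00 CPM with vehicle and 8.31, 11.0 and 8.17 CPM inhibited. Each inhibited library exceeded each vehicle library of its region. The log2 change was 2.34 ± 0.38 (adjusted p = 0.00078) and 2.42 ± 0.37 (adjusted p = 0.000572). The paralog Slc6a20b read at most 0.527 CPM and was not called, and how reads that fit both were divided is not given in the sources used here.

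Slc6a9 (GlyT1, glycine) read 61.5, 59.2 and 70.5 CPM in corpus vehicle and 183.4, 179.6 and 116.9 CPM inhibited. In the antrum, levels were 72.7, 55.7 and 77.6 CPM with vehicle and 147.6, 134.2 and 149.9 CPM inhibited. Inhibited corpus line 8028 was the lowest of its group and still above every vehicle library. It rose by 1.33 ± 0.17 (adjusted p = 0.00016) and 1.07 ± 0.17 (adjusted p = 0.000682) on the log2 scale. Without inhibited 8028, Slc6a9 rose by 1.54 in corpus (adjusted p = 3.44e-06). Its exons share 27.8% of bases with Ccdc24 on the opposite strand, which held 348 counts against 34213 and also rose (log2 1.23 and 1.29, adjusted p = 0.0225 and 0.0251).

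Slc6a6 (TauT, taurine) read 229.6, 224.8 and 211.9 CPM in corpus vehicle and 291.0, 300.5 and 265.4 CPM inhibited. In antrum it read 202.5, 212.5 and 187.2 CPM with vehicle and 259.4, 267.0 and 241.3 CPM inhibited. The groups did not overlap, and the log2 rise was 0.36 ± 0.07 (adjusted p = 0.00229) and 0.35 ± 0.07 (adjusted p = 0.00292). With total-count scaling neither was called (0.21, adjusted p = 0.129, and 0.28, adjusted p = 0.0579), and without antral vehicle lines 8025 and 8028 the antral call was lost (0.27, adjusted p = 0.093).

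Slc6a14 (ATB0,+, neutral and cationic amino acids) read 3.76, 2.52 and 5.06 CPM in corpus vehicle and 3.71, 4.71 and 12.5 CPM inhibited. The antral libraries read 6.37, 5.404 and 6.51 CPM with vehicle and 11.7, 9.07 and 10.3 CPM inhibited. The corpus groups overlapped and the antral groups did not. It was not called (0.89 ± 0.40, adjusted p = 0.113, and 0.77 ± 0.39, adjusted p = 0.161). Blocking on the line gave a call in both regions (0.77, adjusted p = 0.0179, and 0.76, adjusted p = 0.0148), as did leaving out inhibited 8025 in corpus (1.20, adjusted p = 0.0327). The corpus value rests on inhibited line 8028, the highest of its group: without that library it was 0.18 (adjusted p = 0.601), and without both corpus libraries of the line 0.45 (adjusted p = 0.144). Slc6a8 (creatine) read 53.2 to 79.9 CPM in corpus vehicle and 51.1 to 70.2 CPM inhibited, with groups that overlapped (log2 -0.15 ± 0.15, adjusted p = 0.49). Slc6a15, a carrier of branched-chain amino acids and proline, was not called (log2 -0.31 and -0.47, and 0.23, adjusted p = 0.791, in corpus without inhibited 8028).

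**Figure D4:**
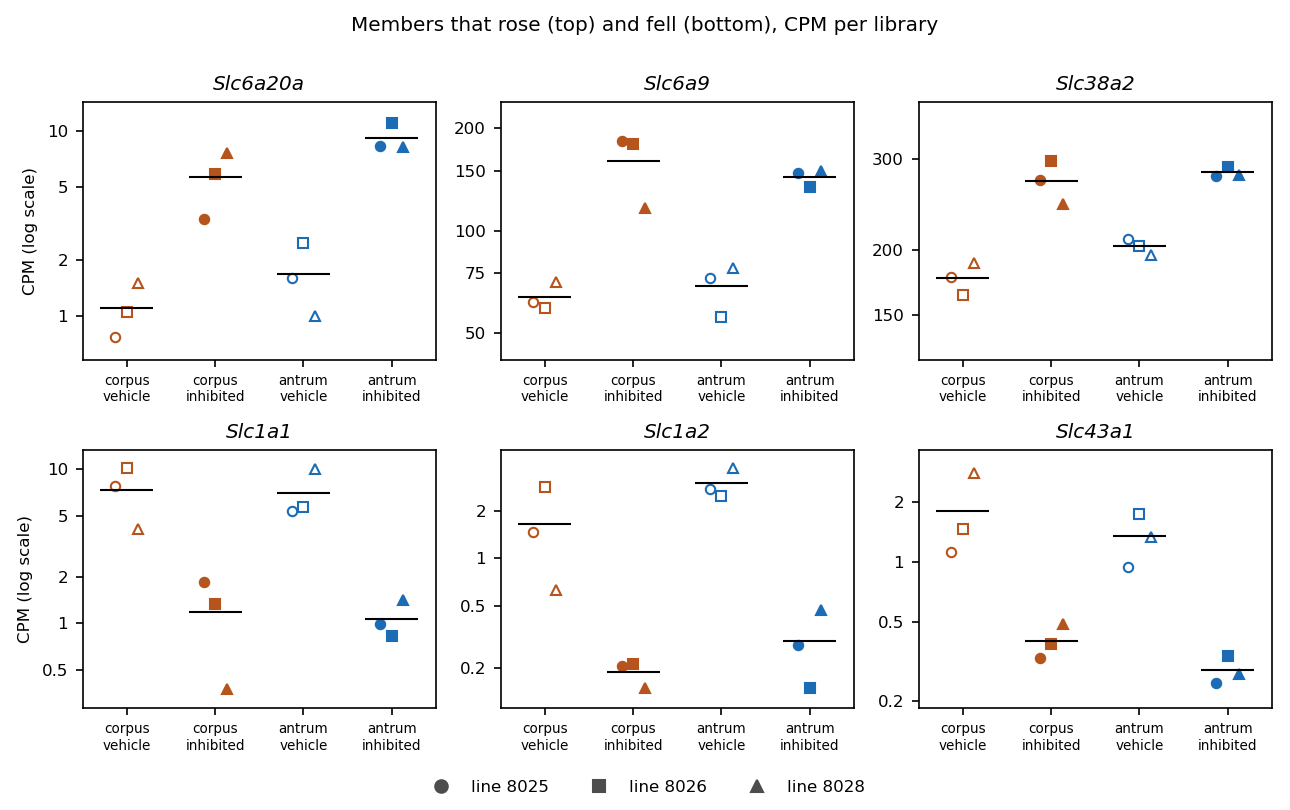
CPM in each library (y axes on a log scale) of 3 genes that rose and 3 that fell in both regions; symbols mark the lines, open points vehicle, filled points inhibited, and bars the mean of 3. The vehicle and inhibited groups of a region do not overlap in any panel, and inhibited corpus line 8028 lies apart for Slc6a9 at 116.9 CPM.

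Of the 6 tested Slc38 genes, Slc38a2 and Slc38a7 rose in both regions, Slc38a1 fell in both and Slc38a6 fell in corpus. Over all genes tested, 12.9% rose and 10.4% fell in both regions. Slc38a2 (SNAT2) read 177.8, 164.2 and 189.0 CPM in corpus vehicle and 272.8, 296.1 and 245.5 CPM inhibited. Antral values were 209.9, 203.8 and 196.0 CPM with vehicle and 278.2, 289.1 and 279.2 CPM inhibited. No vehicle library reached an inhibited library of its region. It rose by 0.62 ± 0.08 (adjusted p = 0.000112) and 0.47 ± 0.07 (adjusted p = 0.000666). The related carrier Slc38a1 (SNAT1) read 82.3, 68.3 and 82.3 CPM in corpus vehicle and 49.0, 43.0 and 64.4 CPM inhibited. In antrum its level was 86.9, 104.5 and 90.3 CPM with vehicle and 46.5, 58.9 and 59.6 CPM inhibited. Vehicle and inhibited values did not overlap, and it fell by 0.57 ± 0.15 (adjusted p = 0.0135) and by 0.77 ± 0.15 (adjusted p = 0.00263). Its corpus call was lost in 5 of 18 alternatives, without vehicle 8025 (0.0539) or 8028 (0.054) and without inhibited 8026 (0.0586) among them.

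Slc38a7 (SNAT7, which exports glutamine from lysosomes) read 17.9, 17.7 and 17.6 CPM in corpus vehicle and 27.8, 26.0 and 23.7 CPM inhibited. Antral levels were 21.9, 19.2 and 21.2 CPM with vehicle and 25.2, 27.4 and 24.9 CPM inhibited. Groups did not overlap, with a rise of 0.54 ± 0.08 (adjusted p = 0.000479) and 0.32 ± 0.08 (adjusted p = 0.0127). The antral call was lost with total-count scaling (0.0673) and without inhibited 8026 (0.0539). Slc38a9, the lysosomal arginine sensor of mTORC1, read 9.16 to 12.5 CPM in corpus vehicle and 9.56 to 11.7 CPM inhibited (log2 -0.05 ± 0.14, adjusted p = 0.804). Slc38a10 was not called (log2 0.05 and 0.01).

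Slc38a6 read 13.7, 13.1 and 9.45 CPM in corpus vehicle and 9.31, 9.25 and 6.73 CPM inhibited, and 10.7, 9.26 and 9.81 against 7.89, 5.97 and 8.33 CPM in antrum. There was no overlap between groups, although both values of line 8028 were the lowest of their corpus group. The change was -0.52 ± 0.18 in corpus (adjusted p = 0.0472) and -0.42 ± 0.18 in antrum (adjusted p = 0.106). The corpus call was lost in 10 of 18 alternatives, without vehicle 8025 (0.181) or 8026 (0.141) and without inhibited 8025 (0.0648), 8026 (0.0782) or 8028 (0.132) among them, and the antral fall was called once lines were blocked (-0.43, adjusted p = 0.0102).

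Of the Slc43 genes, Slc43a1 (LAT3, a facilitator of large neutral amino acids) fell in both regions. It read 1.13, 1.47 and 2.80 CPM in corpus vehicle and 0.330, 0.385 and 0.489 CPM inhibited. In the antrum, levels were 0.944, 1.75 and 1.34 CPM with vehicle and 0.246, 0.336 and 0.274 CPM inhibited. The groups did not overlap, and it fell by 2.14 ± 0.39 (adjusted p = 0.00153) and by 2.24 ± 0.41 (adjusted p = 0.00169). Slc43a2 (LAT4) was not called (0.28 ± 0.14, adjusted p = 0.171, and -0.11 ± 0.14, adjusted p = 0.582). Slc43a3, now known to carry purine nucleobases, read 0.385, 0.255 and 0.400 CPM in corpus vehicle and 0.0824, 0.0856 and 0.151 CPM inhibited, at or near the level of 3 counts, with no overlap of the groups. It fell in corpus (-1.65 ± 0.51, adjusted p = 0.0291), was not called in antrum (-0.32 ± 0.47, adjusted p = 0.646) and lost its corpus call in 9 of 16 alternatives, without vehicle 8025 (0.0815) or 8028 (0.0828) and without inhibited 8025 (0.0982) or 8026 (0.0974) among them. The proton-coupled Slc36a1 and Slc36a4 were not called in either region (log2 -0.18 and 0.30 in corpus, -0.02 and 0.36 in antrum), and antral Slc36a4 was called once lines were blocked (0.36, adjusted p = 0.0461) and without vehicle 8025 (0.48, adjusted p = 0.0382).

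The 11 genes under the filter were Slc36a2, Slc38a3, Slc3a1, Slc6a13, Slc6a17, Slc6a19, Slc6a4, Slc6a7, Slc7a14, Slc7a2 and Slc7a9. They have no test of treatment here, and ratios below carry 95% exact intervals for counting error only. Slc7a9, the light chain of renal cystine uptake, had 4 counts in corpus vehicle and 23 in corpus inhibited, a ratio of 7.37 (2.52 to 29.3) at equal depth, and 6 and 20 in antrum (2.94, 1.14 to 8.95). Its heavy chain Slc3a1 had 24 and 8 counts in corpus (0.427, 0.166 to 0.983) and 19 and 25 in antrum (1.16, 0.614 to 2.23), and 26.5% of its exon bases overlap Prepl on the opposite strand. Slc6a19, the neutral carrier of small intestine and kidney, had 4 and 8 counts in corpus and 0 and 9 in antrum.

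Markers of cell types moved with the treatment. The 5 epithelial markers summed to 6020 to 7080 CPM in the vehicle and 10800 to 12100 CPM in the inhibited libraries, with Krt8 higher (1.20 and 1.08, adjusted p = 3.98e-06 and 6.08e-06) and Epcam lower in corpus (-0.47, adjusted p = 0.016) and not called in antrum (-0.30, adjusted p = 0.0965). The 7 fibroblast markers summed to 1.29 to 2.24 CPM in antrum vehicle and 0.313 to 0.448 CPM in antrum inhibited, where Col1a1 and Vim fell by 1.74 and 2.66 (adjusted p = 0.00224 and 0.0116), and to 0.799 to 1.48 and 0.728 to 1.32 CPM in corpus, where neither was called. Of these 7, 4 (Col1a2, Col3a1, Dcn, Lum) were at or near 0. The 3 tuft cell markers (Dclk1, Trpm5, Pou2f3) summed to 4.68 to 8.76 CPM in corpus vehicle and 1.20 to 1.98 CPM in corpus inhibited, and to 6.89 to 11.3 and 1.23 to 1.92 CPM in antrum. Of these, only Dclk1 was called (-3.62 and -3.55, adjusted p = 0.000169 and 0.000145). Trpm5 was not called (-0.86 and -0.69, adjusted p = 0.071 and 0.154), and Pou2f3 was under the filter, at no more than 0.236 CPM. The list of Atp4a, Atp4b and Cblif fell from 69.7 to 193 to 4.97 to 5.11 CPM in corpus and from 33.7 to 63.0 to 2.93 to 6.64 CPM in antrum, nearly all of it Cblif (gastric intrinsic factor). That sum is therefore no measure of the proton pump genes or of parietal cells. Atp4a, at no more than 1.56 CPM, fell in corpus (-1.71, adjusted p = 0.0242) and was not called in antrum (-0.68, adjusted p = 0.316). The part of these cell types in the rises and falls of the carriers was not tested.

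Antrum was compared with corpus in the same fit. In vehicle, 0 of 32 genes were called higher (0.0681% of all genes) and 0 lower (0.13%) by edgeR, 7 of 32 had an unadjusted p under 0.05 (15.4% of all genes), and DESeq2 called 1 and limma-voom 0. The gene called by DESeq2 was Slc7a1, at 160.8, 169.4 and 149.7 CPM in antrum and 120.8, 114.6 and 143.5 CPM in corpus (log2 0.34 ± 0.08, adjusted p = 0.11 in edgeR). After inhibition 0 genes were called (0.0619% of all genes), with 4 at an unadjusted p under 0.05 (9.24% of all genes) and 0 in DESeq2 and limma-voom. For the difference of response between regions 0 genes were called (0.00619% of all genes), with 2 at an unadjusted p under 0.05 (3.95% of all genes), Slc7a5 and Slc7a1 (-0.28 ± 0.12), and 0 in DESeq2 and limma-voom. Calls between regions changed without corpus line 8028. Without vehicle 8028 alone Slc7a1 was higher in antrum vehicle (0.44, adjusted p = 0.0335), and without both corpus libraries of the line Slc7a1 (0.45, adjusted p = 0.00616), Slc7a5 (0.39, 0.0172), Slc38a2 (0.25, 0.0378) and Slc6a14 (0.95, 0.0248) were higher in antrum vehicle and Slc1a3 was lower (-1.69, 0.0259). Without inhibited corpus 8028 alone, Slc3a2 (-0.46, 0.0116) and Slc38a3 (-2.47, 0.0395) were lower and Slc6a14 (1.298, 0.0186) higher in antrum inhibited. Slc38a3, one of the 11 genes under the filter, passes it in that fit. Without both corpus libraries of the line these 3 genes were also called (-0.46, 0.00647 for Slc3a2, -2.48, 0.0357 for Slc38a3 and 1.295, 0.00584 for Slc6a14), and Slc7a5 was lower in antrum inhibited (-0.29, 0.0284), opposite to its direction in vehicle.

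Related genes of amino acid use were read from lists. Beside the counts here and in the next paragraph, 15.5% of all genes tested rose and 15.4% fell in corpus. In antrum 16.3% of all genes rose and 13.4% fell. Whether a list differs from all genes was not tested. Of 14 tested other carriers and partners, corpus had 3 higher and 2 lower and antrum 2 higher and 1 lower. Pqlc2, the lysosomal exporter of cationic amino acids now named Slc66a1, rose by 0.57 ± 0.15 (adjusted p = 0.0129) and 0.51 ± 0.15 (adjusted p = 0.0224). Lrrc8a, a subunit of the volume-regulated anion channel, rose by 0.35 and 0.32 (adjusted p = 0.00427 and 0.00795), and Slc16a10, an aromatic amino acid carrier, fell in corpus (-1.84 ± 0.57, adjusted p = 0.0295). Of 28 genes of amino acid synthesis and glutamine use, corpus had 5 higher and 4 lower and antrum 3 higher and 5 lower. Gpt, alanine transaminase, read 8.51, 8.83 and 7.02 CPM in corpus vehicle and 37.3, 32.6 and 17.5 CPM inhibited, a rise of 1.84 ± 0.25 (adjusted p = 0.000256), and 2.15 ± 0.26 (adjusted p = 0.000123) in antrum. Ass1, argininosuccinate synthase, fell by 1.31 and 0.999 (adjusted p = 0.000507 and 0.00284), and Gls2, a glutaminase, by 1.22 and 1.13 (adjusted p = 0.00145 and 0.00231).

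Of 16 genes of ATF4 and the starvation response, 10 rose and 1 fell in corpus (median log2 0.50) and 3 rose and 1 fell in antrum (median 0.18), beside medians of -0.04 over all genes in both. Chac1, which degrades glutathione, rose by 1.51 ± 0.23 (adjusted p = 0.000506) and 0.74 ± 0.22 (adjusted p = 0.0274), and Stc2, a secreted glycoprotein, by 1.11 and 0.53 (adjusted p = 0.000639 and 0.0369). Trib3, a pseudokinase, rose in corpus (0.95 ± 0.18, adjusted p = 0.00254) and was not called in antrum (0.15, adjusted p = 0.578). Of 20 cytosolic aminoacyl-tRNA synthetases, 9 rose and 2 fell in corpus (median 0.24) and 1 rose and 2 fell in antrum (median 0.05). Nars rose in corpus (0.56 ± 0.10, adjusted p = 0.00142), as did Cars (0.48 ± 0.12, adjusted p = 0.00995) and Farsb fell in both (-0.50 and -0.41, adjusted p = 0.000971 and 0.00347). Inhibited corpus line 8028 was lowest of its group for Chac1 (35.3 against 72.4 and 67.7 CPM), Stc2 (221.3 against 365.1 and 401.2 CPM) and Cars (139.8 against 197.5 and 199.0 CPM), as for Slc6a9, Slc3a2 and Slc1a4. Without that library the corpus rises were 1.80 for Chac1 (adjusted p = 1.82e-06), 1.35 for Stc2 (adjusted p = 6.38e-07) and 0.65 for Cars (adjusted p = 3.5e-05). Antrum against corpus after inhibition was then lower for Stc2 (-0.745, adjusted p = 0.00181), Cars (-0.40, 0.0162) and Chac1 (-0.54, 0.0281). So it was for Nars (-0.32, 0.0248) and Gpt (-0.64, 0.0311), but Trib3 was not called (-0.30, 0.269). Of 30 genes of mTORC1 amino acid sensing, corpus had 6 higher and 5 lower and antrum 7 higher and 4 lower, with Lamtor4 (0.40 and 0.42, adjusted p = 0.00393 and 0.00304) and Lamtor1 (0.34 and 0.31, adjusted p = 0.00702 and 0.0114), subunits of the lysosomal Ragulator, higher, and Sesn1 (-0.43 and -0.42, adjusted p = 0.00661 and 0.00772), a sestrin, lower. The difference of response between regions was called for 0 genes of these lists in edgeR.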

How the data were processed

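RNA was polyA-selected. Expected counts for each gene were deposited by the authors, per the file headers, already whole numbers, so rounding changed nothing. Per the submitters' processing notes, RSEM 1.3.3, STAR 2.7.8a, cutadapt 2.3 and FastQC 0.11.8 were used with GRCm38. Neither the annotation release nor the strand setting of the counting is given in the sources used, so reads of overlapping genes on opposite strands cannot be told apart. The 5 rows that name no gene, with 2 counts in all, were left out. Groups follow the labels, where vehicle libraries are labelled as untreated and the protocol gives DMSO.

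Counts were fitted with edgeR 4.0.16 (R 4.3.3): TMM scaling, filterByExpr by group (16152 genes), then robust quasi-likelihood dispersions over the 12 libraries together (residual degrees of freedom 8). Adjusted p-values are Benjamini-Hochberg over all genes tested, and the fit was tested on simulated data. Exon lengths, positions and overlaps come from GENCODE mouse release 21, where 55240 identifiers matched. Members and lists were chosen with earlier results of these data known. Values per library are given for those of a list of 23 members that passed the filter (some only as ranges where not called) and for up to 8 further called members, and each related list names up to 3 called genes with the largest corpus change.

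Per the labels' protocols each line was cultured with vehicle and with inhibition, and the correlation of same-line deviations from group means was 0.157 to 0.544 over the 6 pairs, so line numbers pair vehicle with inhibited libraries of a region. The labels call the lines independent, and whether a number marks the same mouse in both regions is not given in the sources. As alternatives, DESeq2 1.42.0 and limma-voom (limma 3.58.1) replaced the test; scaling was by RLE, upper quartile or total counts; genes were unfiltered or kept at 1 CPM in 3 libraries; and further fits used the line as a replicate block, only the 6 libraries compared, a minimum change of 1.5-fold, and leaving out libraries or lines.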

Additional observations from a re-analysis of the deposited data

How the results depend on the processing

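Of 28 calls in the 2 treatment comparisons, 16 kept their direction and side of the threshold in every alternative apart from the minimum change of 1.5-fold. They were Slc1a1, Slc1a2, Slc43a1, Slc6a20a, Slc6a9 and Slc38a2 in both regions, Slc38a7 and Slc7a1 in corpus, and Slc38a1 and Slc7a5 in antrum. The 1.5-fold minimum is left out of that count, of the 515 values next and of the counts of alternatives given for single genes above. Of the 515 values of called genes, 63 lost the call and 0 changed sign, and 10 results that were not called gained a call in 20 values. In corpus a minimum change of 1.5-fold left 3 genes higher and 5 lower, and no low-count filter or only the 6 libraries compared also left 5 lower. In antrum a minimum of 1.5-fold left 2 higher and total-count scaling 3. DESeq2 called 1 gene higher in antrum vehicle. Leaving out each library or line gave 3 to 7 genes lower in corpus, 0 to 4 higher and 0 to 1 lower in antrum vehicle against corpus, and 0 to 4 called between regions after inhibition, Slc38a3 included, which passes the filter without inhibited corpus line 8028. With the line as a replicate block (pairing vehicle and inhibited libraries), corpus had 8 higher and 8 lower and antrum 9 higher and 7 lower. The cause of these differences was not tested, except that the minimum change removes genes by construction. Low counts limit Slc1a2, Slc43a1 and Slc43a3, which held few counts per inhibited library.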
